A study of Mus musculus with 6 samples.

Results

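The heat shock genes described here are 10 of the 56941 gene identifiers in the count table: the transcription factor gene Hsf1, the HSP70 genes Hspa1a, Hspa1b and Hspa8, the HSP110 gene Hsph1, the J-protein genes Dnajb1 and Dnaja1, the HSP90 gene Hsp90aa1, and the mitochondrial chaperonin genes Hspd1 and Hspe1. They were chosen by name as members of the heat shock response, with earlier results of these data known. Their identifiers were matched to GENCODE mouse symbols. RNA was sequenced from 6 samples labelled as CD8+ T cells of B6 mouse spleen, activated for 3 days with plate-bound antibodies to CD3 and CD28 in medium with recombinant IL-2 at 100 U/ml. After 24 h of activation, 3 samples received sphingosine 1-phosphate (S1P, a circulating signalling lipid) at 5 µM and 3 received vehicle. Replicates are labelled as biological, with no word on whether they came from separate mice or cultures, so p-values measure only the spread between these samples.

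Heat shock proteins are molecular chaperones, which bind other proteins while these fold, assemble or unfold under stress. In unstressed cells HSF1 is held inactive by chaperones, and when unfolded proteins draw these away it forms trimers that bind inverted repeats of a short unit, GAA and its complement TTC, in the promoters of chaperone genes. T cell activation is known to raise several cytosolic and mitochondrial chaperones along with protein synthesis, and the genes fall into those that are made at all times, such as Hspa8, and those that are strongly induced by heat, such as Hspa1a and Hspa1b.

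No heat shock gene rose with S1P, and 3 fell. Hsph1 fell by 0.62 on the log2 scale, Hsf1 by 0.37 and Hspd1 by 0.30, where calls needed an adjusted p no higher than 0.05 and a log2 change of 0.3 or more up or down (edgeR's quasi-likelihood test, Benjamini-Hochberg adjustment over 13299 tested genes). Hsf1 and Hsph1 kept their calls in all 6 fits with a library left out, but Hspd1 in only 1, the one without S1P replicate 2. Hsp90aa1 and Dnaja1 passed the adjusted p but not the size of change. Both kept that adjusted p in 1 of the 6 fits, again the one without S1P replicate 2. By the adjusted p alone 5 of the 9 tested genes were lower, beside 13.8% of all tested genes. Hspa8, Dnajb1, Hspe1 and Hspa1b did not pass the adjusted p, and Hspa1a had too few counts to be tested. The count of 3 among 9 tested genes stood beside 10.4% of all tested genes called lower, and the count of 0 called higher beside 12.7% called higher. The count called higher was also 0 with DESeq2, with limma-voom and at an unadjusted p under 0.05 in edgeR. All S1P values lay below all vehicle values for 6 of the 9 tested genes, where 22.6% of all tested genes did so, and for none above, where 23.0% did. The median log2 fold change was -0.23 over the 9 genes and 0.012 over all tested genes. In bulk RNA, fewer cells of a type and less RNA per cell cannot be told apart.

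The libraries held 12048880 to 17384084 counts. The S1P replicate 2 library stood apart: 7.80% of its counts came from mitochondrially encoded genes, against 4.10% to 4.93% in the other libraries. Values without it are therefore also given for several of the genes below. T cell genes were well detected (Trac at 259 to 309 CPM, counts scaled to library size with TMM factors), and Cd8a fell from 222 ± 24.9 to 139 ± 6.59 CPM (SD, n = 3, adjusted p = 0.000243 in edgeR's test). Of the 7 T cell markers listed for CD8 T cells, 2 were called lower and 1 higher (Cd2, 0.33). The 2 called lower were the CD8 chain genes, Cd8a (log2 fold change -0.67) and Cd8b1 (-0.55). These counts stood beside 10.4% of all tested genes called lower and 12.7% called higher. Apart from the CD8 chain genes, the listed markers are T cell genes that are not particular to CD8 T cells. Cd3d (-0.28) and Cd3g (-0.21) passed the adjusted p alone, with all S1P values below vehicle, and the median of the 7 was -0.21, with 5 of them negative. The 7 T cell markers of the CD8 list summed to 1301 to 1474 CPM in vehicle and 1201 to 1366 in S1P libraries. The 6 B cell markers were all detected, with a summed level of 982 to 1190 CPM in vehicle and 1044 to 1134 in S1P libraries. Of these, 1 was called lower (Ms4a1, -0.39), beside 10.4% of all tested genes. Pax5 (0.33) was not called, though its S1P values all lay above vehicle. The 4 CD4 T cell markers summed to 229 to 272 CPM in vehicle and 252 to 319 in S1P libraries, all with positive log2 fold changes. Among them 2 were called higher (Zbtb7b, 0.37, and Cd40lg, 0.50), beside 12.7% of all tested genes. Cd4 itself was at 203 ± 18.4 CPM in vehicle and 218 ± 31.6 CPM in S1P libraries (SD, n = 3) and was not called. Markers of myeloid cells summed to 2.98 to 6.14 CPM, with Lyz2, Csf1r and Fcgr3 at 0 in some libraries. Markers of NK cells summed to 0.785 to 2.46 CPM and of erythroid cells to 0.263 to 1.02 CPM, with Hba-a1 at 0 in 3 libraries. Of 8 early response genes that also move with cell handling, 4 rose (Jun, Junb, Zfp36 and Egr1), beside 12.7% of all tested genes, while Fos (0.39) had all S1P values above vehicle and Fosb (-0.46) and Ier2 (-0.25) all below, none of them called. The list summed to 329.7 to 363 CPM in vehicle and 474 to 500 in S1P libraries. The study's general culture methods start from either purified naive T cells or whole splenocytes. The part of these cell types and of handling in the results below was not tested.

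**Figure D1:**
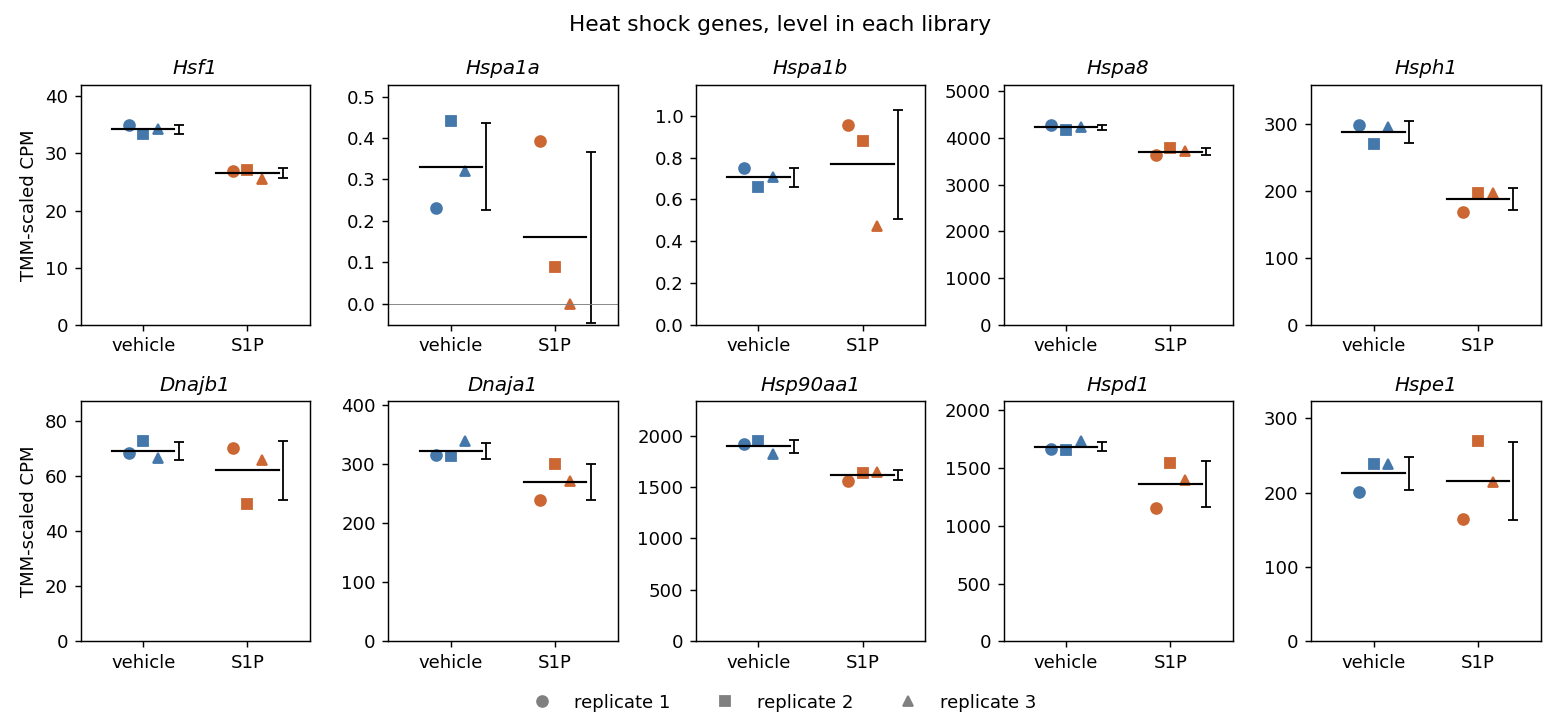
Level of each of the 10 heat shock genes in each library, in TMM-scaled CPM on a linear axis; symbols mark the replicate number, horizontal bars the group mean and error bars the SD over 3 libraries. The S1P libraries lie below every vehicle library for Hsf1, Hspa8, Hsph1, Dnaja1, Hsp90aa1 and Hspd1, and the groups overlap for the other 4 genes.

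A promoter window is shown for Hsph1, which fell furthest of the 9 tested genes, for Hspe1, whose window overlaps one of its neighbour Hspd1, and for Hspa1a, which like its near copy Hspa1b was barely detected. The windows run from 250 bases before to 50 after an annotated start and come from RefSeq (build GRCm38.p6, whereas the counts rest on GRCm39). Of the 10 genes, 7 matched this table: Hspa1a, Hspa1b, Hsph1, Dnajb1, Dnaja1, Hspd1 and Hspe1. Capitals mark the units of every pair of inverted units 2 bases apart, searched as GAANNTTC and TTCNNGAA, each of which is its own reverse complement so that both strands are covered.
Hsph1, chr5:149636266-149636565, minus strand: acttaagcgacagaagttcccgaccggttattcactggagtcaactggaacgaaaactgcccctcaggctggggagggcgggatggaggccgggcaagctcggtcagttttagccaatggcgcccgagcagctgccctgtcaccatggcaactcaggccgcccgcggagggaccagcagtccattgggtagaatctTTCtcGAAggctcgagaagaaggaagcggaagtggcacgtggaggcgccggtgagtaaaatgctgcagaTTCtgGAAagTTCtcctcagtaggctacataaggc
Hspe1, chr1:55087898-55088197, plus strand: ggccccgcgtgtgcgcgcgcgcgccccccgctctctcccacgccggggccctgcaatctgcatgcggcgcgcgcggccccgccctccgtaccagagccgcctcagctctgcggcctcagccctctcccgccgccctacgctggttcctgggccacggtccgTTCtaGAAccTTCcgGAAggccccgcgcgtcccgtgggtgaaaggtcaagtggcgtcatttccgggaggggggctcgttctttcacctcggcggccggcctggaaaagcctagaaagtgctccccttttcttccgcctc
Hspa1a, chr17:34972107-34972406, minus strand: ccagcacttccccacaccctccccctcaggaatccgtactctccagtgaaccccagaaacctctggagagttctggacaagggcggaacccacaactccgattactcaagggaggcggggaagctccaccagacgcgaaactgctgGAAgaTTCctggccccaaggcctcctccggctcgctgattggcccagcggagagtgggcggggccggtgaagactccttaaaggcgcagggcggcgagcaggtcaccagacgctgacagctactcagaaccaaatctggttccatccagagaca

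A pair of units stood in a window of 6 of the 7 genes, all but Dnajb1, and of 16.97% of the 27025 genes in the table (15.1% of its 32851 windows). Sites of 3 units in a row, GAANNTTCNNGAA or TTCNNGAANNTTC, stood in windows of Hsph1, Hspd1 and Hspe1, of 0.662% of all genes and in 0.603% of all windows. These 2-unit and 3-unit sites overlap by construction. In Hsph1 one pair, TTCTCGAA, began 54 bases before the start of the window shown and a 3-unit site, TTCTGGAAAGTTC, 15 bases after that start. Counted from its other annotated start, they began 33 bases before and 36 bases after. The Hspe1 window shares 285 bases with a window of Hspd1, which is read from the opposite strand, and both hold the same run of 4 units, read in Hspe1 as TTCTAGAACCTTC followed by cgGAA. That run began 89 bases before the Hspe1 start and 144 before the Hspd1 start, and these starts lie 216 bases apart. The Hspa1a window has 1 pair, GAAGATTC, 104 bases before the start. The Hspa1b window (chr17:34959189-34959488, minus strand) matched it over 98.7% of its bases and differed by C44T, T47C, T249G and C276T (Hspa1a base first, positions counted from 1 at the 5′ end of the window), none of them in the pair. Dnaja1 had 1 pair, GAAAATTC, 124 bases before the first of its starts. A match describes letters in a window and says nothing of whether HSF1 bound there in these cells.

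Hsf1 encodes the master transcription factor of the response (ENSMUSG00000022556, chr15:76361558-76388138 on the plus strand of GRCm39). It was at 35.0, 33.4 and 34.2 CPM in vehicle replicates 1 to 3 and at 26.9, 27.1 and 25.6 CPM in S1P replicates 1 to 3. Every S1P library was below every vehicle library, and the spread within each group was small against the gap. The mean went from 34.2 ± 0.810 to 26.5 ± 0.823 CPM (SD, n = 3), a log2 fold change of -0.37 ± 0.078 (SE) with an adjusted p of 0.00539 in edgeR's test. The call stood when each library was left out in turn, with values from -0.39 to -0.35. Of the exon bases of Hsf1, 30.1% lie under genes on the opposite strand, Bop1 and Dgat1, and Bop1, a ribosome assembly factor with a mean of 1181 counts, itself fell by 0.88. The libraries were strand-specific, but the strand setting of the counting is not given in the sources used here, so the part of Bop1 reads in the Hsf1 value was not tested.

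Hsf2, a related factor that can form trimers with HSF1, was at 37.4, 27.9 and 37.2 CPM in vehicle and at 40.1, 42.9 and 39.3 CPM in S1P libraries. Its S1P values were all higher, but vehicle replicate 2 was low, and the log2 fold change of 0.25 (95% interval 0.012 to 0.49) had an adjusted p of 0.107 in edgeR's test. Without vehicle replicate 2 it was 0.12 (adjusted p = 0.362). Within each library, Hsf1 made up 50.2% ± 3.63 of the counts of the pair in vehicle and 39.4% ± 0.707 in S1P (SD, n = 3), with 54.4% in vehicle replicate 2 and 47.9% to 48.4% in the other vehicle libraries. The groups did not overlap, and the exact permutation test, two-sided, gave p = 0.1, the smallest value that 3 against 3 libraries allow. Hsbp1, which binds and restrains HSF1 trimers, had a log2 fold change of -0.0040 with an interval of -0.21 to 0.20.

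The heat-inducible pair Hspa1a and Hspa1b (chr17:35188166-35191132 and chr17:35175412-35178214, both minus strand, GRCm39) encode the major stress-induced HSP70 from 2 neighbouring genes. Hspa1a had 4, 6 and 5 counts in vehicle and 7, 1 and 0 in S1P libraries. Hspa1b had 13, 9 and 11 counts in vehicle and 17, 10 and 6 in S1P libraries. Both groups overlapped, and all 12 values were near the limit of detection at these depths. Hspa1a did not pass the filter on low counts, and the log2 fold change of Hspa1b was 0.14 with an interval of -0.65 to 0.93, so that neither a rise nor a fall was detectable at this depth. Of the 31-base stretches in Hspa1a transcripts, 70.1% also occur in transcripts of other genes, mainly Hspa1b. For 150-base stretches, the length of the sequenced reads, the share was 45.95%, and for Hspa1b it was 40.5%. The split of reads between the pair is therefore uncertain. Their levels are uncertain too, since it is not known whether reads that fit more than 1 gene were counted. With their counts added, the pair had 17, 15 and 16 counts in vehicle and 24, 11 and 6 in S1P libraries, and the log2 fold change turned to -0.10 (adjusted p = 0.863 in edgeR's test).

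Hspa8 encodes HSC70, the constitutive HSP70 that folds new proteins and uncoats clathrin vesicles (ENSMUSG00000015656, chr9:40711630-40731039, plus strand). It was at 4277, 4171 and 4235 CPM in vehicle and at 3624, 3772 and 3713 CPM in S1P libraries. The groups did not overlap, and the S1P libraries were 12.4% lower in the fit. The log2 fold change of -0.19 (interval -0.36 to -0.025) had an adjusted p of 0.0805 in edgeR's test, 0.0168 in DESeq2 and 0.0187 in edgeR's test without S1P replicate 2, and it was under the size of change for a call in each. The 10 genes together made up 0.870% to 0.891% of the counts in vehicle and 0.717% to 0.751% in S1P libraries.

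Hsph1 encodes HSP110, which lets HSP70 exchange its nucleotide and release its client (ENSMUSG00000029657, chr5:149537636-149560156, minus strand). It was at 299, 270.0 and 296 CPM in vehicle and at 168, 197 and 197 CPM in S1P libraries. All S1P libraries were far below the vehicle libraries, with S1P replicate 1 the lowest. The mean went from 288 ± 16.0 to 188 ± 16.5 CPM (SD, n = 3), 35.0% lower in the fit, with a log2 fold change of -0.62 ± 0.080 (SE, interval -0.80 to -0.45) and an adjusted p of 0.000268 in edgeR's test. The call stood in all 14 alternative analyses, from -0.67 to -0.55. Hspa4, a second HSP110 gene, was at 716, 693 and 731 CPM in vehicle and at 531, 750.2 and 628 CPM in S1P libraries, with a log2 fold change of -0.17 that did not pass the test (adjusted p = 0.271 in edgeR). That value was -0.30 without S1P replicate 2 (adjusted p = 0.00573) and -0.051 without S1P replicate 1. Hsph1 made up 28.8% ± 0.712 of the counts of this pair in vehicle and 22.9% ± 1.82 in S1P libraries (SD, n = 3), without overlap (exact permutation p = 0.1, two-sided). Hspa4l, the third HSP110 gene, had a log2 fold change of 0.12 and an adjusted p of 0.206 in edgeR's test.

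The J proteins deliver clients to HSP70 and start its ATP hydrolysis. Dnajb1, the HSP40 gene that is itself induced by heat (chr8:84334811-84339820, plus strand), was at 68.3, 72.5 and 66.5 CPM in vehicle and at 70.3, 49.8 and 65.9 CPM in S1P libraries. Only S1P replicate 2 was clearly low, and the groups overlapped. The log2 fold change was -0.15 (interval -0.39 to 0.089, adjusted p = 0.332 in edgeR's test), and it was -0.016 without S1P replicate 2 and -0.25 without S1P replicate 1.

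Dnaja1, a constitutive J protein with a farnesylated tail (chr4:40722056-40737149, plus strand), was at 316, 313 and 338 CPM in vehicle and at 239, 299.8 and 272 CPM in S1P libraries. The S1P libraries were all lower, though replicate 2 came near the vehicle libraries. The log2 fold change of -0.26 ± 0.084 (SE) had an adjusted p of 0.0403 in edgeR's test and was not called, whereas without S1P replicate 2 it was called at -0.34, and without S1P replicate 1 it was -0.18 with an adjusted p of 0.0985. The adjusted p was 0.0803 to 0.153 with any of the other libraries left out. Of its exon bases, 83.4% lie under opposite-strand genes, mainly the splicing gene Smu1, which had a log2 fold change of -0.21 (adjusted p = 0.0484 in edgeR's test). The part of Smu1 reads in the Dnaja1 value was not tested. Dnajb1 made up 17.7% ± 1.19 of the counts of the J-protein pair in vehicle and 18.8% ± 4.27 in S1P libraries (SD, n = 3, exact permutation p = 0.7, two-sided).

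Hsp90aa1 encodes the stress-inducible cytosolic HSP90, which matures kinases and steroid receptors (ENSMUSG00000021270, chr12:110656842-110669166, minus strand). It was at 1919.5, 1944 and 1824 CPM in vehicle and at 1563, 1635 and 1651 CPM in S1P libraries. The groups did not overlap, and the spread within each was narrow. The log2 fold change of -0.23 ± 0.073 (SE) had an adjusted p of 0.0346 in edgeR's test, under the size of change for a call. The adjusted p was 0.00910 without S1P replicate 2 and 0.054 to 0.121 with any other library left out. Hsp90ab1, the constitutive partner gene, was at 4235, 4382 and 4242 CPM in vehicle and at 4323, 5073 and 4587 CPM in S1P libraries, with a log2 fold change of 0.12 (interval -0.068 to 0.31, adjusted p = 0.321 in edgeR's test) that was 0.057 without S1P replicate 2. Hsp90aa1 made up 30.7% ± 0.561 of the counts of the pair in vehicle and 25.8% ± 1.24 in S1P libraries (SD, n = 3). This share was lower in each S1P library than in any vehicle library (exact permutation p = 0.1, two-sided, the smallest possible), and it was 24.4% in S1P replicate 2 and 26.5% to 26.6% in the other 2 S1P libraries. Of the 31-base stretches in Hsp90aa1 transcripts, 40.1% also occur in transcripts of other genes, mainly Gm12346. For 150-base stretches, the length of the sequenced reads, the share was 15.6%. How reads that fit more than 1 gene were counted is not given in the sources used here.

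**Figure D2:**
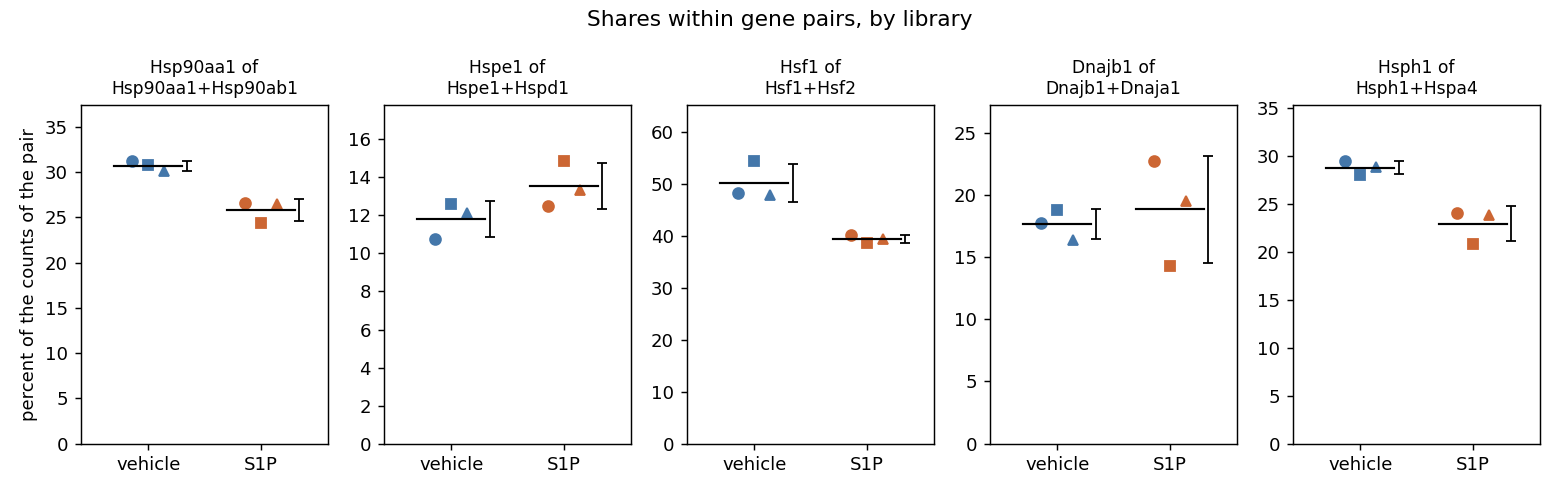
Share of the first-named gene in the counts of a gene pair, in percent on axes that start at 0, for each library; symbols mark the replicate number (circle 1, square 2, triangle 3), bars the mean and error bars the SD over 3 libraries. The shares of Hsp90aa1, Hsf1 and Hsph1 are lower in all S1P than in all vehicle libraries, and the groups overlap for Hspe1 and Dnajb1.

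The mitochondrial chaperonin is a chamber of HSP60 rings, encoded by Hspd1, closed by a lid of HSP10, encoded by Hspe1. Their genes are read in opposite directions on chromosome 1 (Hspd1 at 55116989 to 55171038 on the minus strand, Hspe1 at 55127260 to 55130476 on the plus strand, GRCm39), and a promoter window of Hspd1 overlaps the Hspe1 window shown above. Hspd1 was at 1665, 1655 and 1730 CPM in vehicle and at 1152, 1543 and 1396 CPM in S1P libraries. Every S1P library was lower, but the S1P libraries were spread widely, with replicate 1 lowest and replicate 2 highest. The mean went from 1683 ± 40.6 to 1364 ± 197 CPM (SD, n = 3), with a log2 fold change of -0.30 ± 0.10 (SE) and an adjusted p of 0.0405 in edgeR's test. This call stands at the threshold: it was lost when any library other than S1P replicate 2 was left out. Without S1P replicate 1 the log2 fold change was -0.20 (adjusted p = 0.0749) and without S1P replicate 2 it was -0.40 (adjusted p = 0.0014).

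Hspe1 was at 201, 239 and 239 CPM in vehicle and at 164, 269 and 214 CPM in S1P libraries. S1P replicate 1 was the lowest of all 6 libraries and S1P replicate 2 the highest, a wider spread than among the vehicle libraries. The log2 fold change was -0.068 (interval -0.38 to 0.24, adjusted p = 0.755 in edgeR's test), 0.096 without S1P replicate 1 and -0.26 without S1P replicate 2. Hspe1 made up 11.8% ± 0.948 of the counts of the chaperonin pair in vehicle and 13.6% ± 1.2 in S1P libraries, with overlap (SD, n = 3, exact permutation p = 0.2, two-sided). The order of the S1P libraries was the same in Hspd1 and Hspe1. It was also that of Hspa8, Dnaja1 and Hspa4, so it was not particular to this pair, while Hsf1, Dnajb1 and Hsp90aa1 had other orders. Of the 31-base stretches in transcripts of Hspd1, 32.3% also occur in transcripts of other genes, among them the pseudogene Hspd1-ps3. For 150-base stretches, the length of the sequenced reads, the share was 5.12%.

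**Figure D3:**
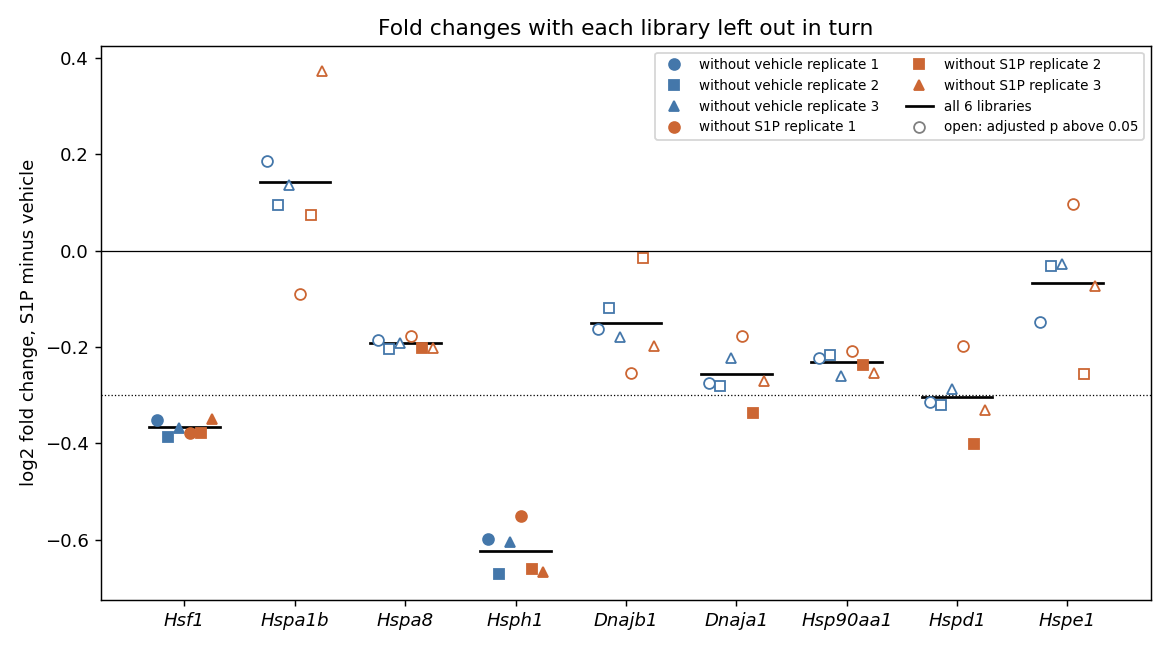
Log2 fold change (S1P minus vehicle) of the 9 tested heat shock genes when a single library of the 6 is dropped; filled symbols have an adjusted p of at most 0.05, horizontal bars are the values with all libraries and the dotted line marks -0.3. Hsf1 and Hsph1 stay past the line with filled symbols throughout, while Hspd1 does so only without S1P replicate 2.

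Levels of different genes were compared per kilobase of exon. In vehicle libraries, Hspa8 was at 487 ± 6.18 RPKM (counts scaled by library size and by exon length, SD, n = 3), Hspd1 at 451 ± 10.9 and Hsp90aa1 at 412 ± 13.7. Hspe1 followed at 127 ± 12.2, then Dnaja1 at 35.2 ± 1.5, Hsph1 at 26.0 ± 1.44, Dnajb1 at 18.4 ± 0.828, Hsf1 at 3.42 ± 0.081 and Hspa1b and Hspa1a at 0.252 ± 0.0159 and 0.111 ± 0.0354. The abundant genes were thus the constitutive HSP70, the mitochondrial chamber and the inducible HSP90, while the heat-inducible HSP70 pair was at the bottom. The levels of that pair may be too low if reads that fit more than 1 gene were not counted. In S1P libraries, Hspd1 at 366 ± 52.9 and Hsp90aa1 at 351 ± 10.1 RPKM lay within the spread of the first and could not be ordered. With the longest transcript in place of all exon bases as the length, Hspa8 in vehicle stood at 933, Hspd1 at 507, Hsp90aa1 at 485 and Hspe1 at 234 RPKM, in the same order.

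The other chaperones formed a list of 83 genes, of which 73 were tested, 15 fell and 4 rose, with a median log2 fold change of -0.024. These shares stand beside 10.4% of all tested genes called lower and 12.7% called higher. Among 16 HSP90 partners and co-chaperones (median -0.15, all tested genes 0.012), 5 fell: Ahsa1, which speeds the ATP hydrolysis of HSP90, the immunophilins Fkbp4, Fkbp5 and Fkbp8, and the myosin chaperone Unc45a. Ahsa1 was at 175, 176 and 175 CPM in vehicle and at 111, 122 and 131 CPM in S1P libraries, with a log2 fold change of -0.53 and an adjusted p of 0.000401 in edgeR's test. Stip1, which links HSP70 to HSP90, had a log2 fold change of -0.089 (adjusted p = 0.493) and Chordc1 one of -0.22 (adjusted p = 0.0631). Without S1P replicate 2 they were -0.20 (adjusted p = 0.0232) and -0.30 (adjusted p = 0.00436), and without S1P replicate 1 -0.0071 and -0.14.

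Among 14 genes of the TRiC chaperonin, which folds actin and tubulin, and of prefoldin, which hands clients to it (median -0.19), 6 fell, beside 10.4% of all tested genes. These were Cct3 (log2 fold change -0.45), Cct4 (-0.35), Cct6a (-0.35), Cct7 (-0.34), Pfdn4 (-0.34) and Pfdn6 (-0.37). Cct3 was at 424, 415 and 417 CPM in vehicle and at 295, 300.4 and 325 CPM in S1P libraries. Of the other TRiC subunits, Cct8 passed the adjusted p alone (-0.25, adjusted p = 0.0217), and Tcp1, Cct2 and Cct5 did not pass it, with log2 fold changes of -0.020, 0.10 and -0.12. The other prefoldin genes did not pass it either. Pfdn5 was at 0.30 with all S1P values above vehicle, and Pfdn1, Pfdn2 and Vbp1 were at 0.027, 0.063 and -0.13.

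Among 14 HSP70 relatives and their exchange factors, 1 fell and 1 rose, beside 10.4% and 12.7% of all tested genes. Hspbp1, which frees nucleotide from HSP70, fell by 0.65 (adjusted p = 0.00132 in edgeR's test) from 29.1 ± 2.34 to 18.5 ± 2.32 CPM (SD, n = 3). Hspa2, an HSP70 known from testis, rose by 0.76 at a low level, from 2.45 ± 0.391 to 4.19 ± 1.15 CPM. It lost its call when any library but S1P replicate 3 was left out, and was at 0.60 without S1P replicate 2. Bag3, a heat-inducible co-chaperone that HSF1 drives, had 5.06 to 5.79 CPM in vehicle and 6.13 to 6.67 in S1P libraries, with a log2 fold change of 0.21 (adjusted p = 0.303). Of 11 J proteins, 1 rose, beside 12.7% of all tested genes. This was Dnajb4, by 0.50 from 12.7 ± 1.01 to 18.0 ± 3.42 CPM, and by 0.34 without S1P replicate 2. The small heat shock gene Hspb1, a classic heat-induced chaperone, had no count in any library, and only 2 of 8 genes of that kind could be tested.

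In the mitochondrion, 2 of 14 genes rose and 3 fell (median -0.045), beside 12.7% and 10.4% of all tested genes. Lonp1, the matrix protease that degrades oxidized and misfolded proteins, rose by 0.84 (adjusted p = 2.1e-05 in edgeR's test). It was at 162, 168 and 153 CPM in vehicle and at 302, 285 and 279 CPM in S1P libraries, so that every S1P library stood well above every vehicle library. Hscb, a J protein of iron-sulfur cluster assembly, rose by 0.41. The genes that fell were Grpel1, the exchange factor of mitochondrial HSP70 (-0.42), and the proteases Clpp (-0.41) and Htra2 (-0.42). Hspa9, the mitochondrial HSP70 itself, had a log2 fold change of 0.049 (adjusted p = 0.691), which was -0.032 without S1P replicate 2 and 0.11 without S1P replicate 1. Trap1, the mitochondrial HSP90, was at -0.23 and passed the adjusted p alone (0.0259), which was 0.0655 to 0.102 when a vehicle library was left out. Afg3l2 passed the adjusted p alone in the other direction (0.24, adjusted p = 0.0182 in edgeR's test), with all S1P values above vehicle. Of the called genes of the wider list, Ahsa1, Hspbp1, Cct3, Cct7, Pfdn6, Grpel1 and Lonp1 kept their calls with any 1 library left out, and the others lost theirs at least once. The count that rose was 1 without vehicle replicate 1 and 2 without vehicle replicate 3, and the count that fell was 9 without vehicle replicate 2 and 10 without S1P replicate 2.

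Chaperones of the endoplasmic reticulum (ER), which answer to another stress pathway, were set beside these. Of 18 genes, 4 fell and 2 rose, with a median of -0.13, beside 10.4% of all tested genes called lower and 12.7% called higher. Sdf2l1 fell by 0.72, the HSP110 relative Hyou1 by 0.44, Dnajb11 by 0.35 and Creld2 by 0.31, while Dnajb9 rose by 0.43 and P4hb by 0.37. P4hb lost its call without vehicle replicate 3, and Dnajb9 without vehicle replicate 2, vehicle replicate 3 or S1P replicate 1. Hspa5, the ER HSP70 known as BiP, was at 1079.7, 1096 and 1088 CPM in vehicle and at 1042, 1030.2 and 1013 CPM in S1P libraries. These groups did not overlap, yet the log2 fold change of -0.081 did not pass the test (adjusted p = 0.393), and neither did that of Hsp90b1, the ER HSP90, at -0.023 (adjusted p = 0.836, and -0.066 to -0.0020 with 1 library left out).

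**Figure D4:**
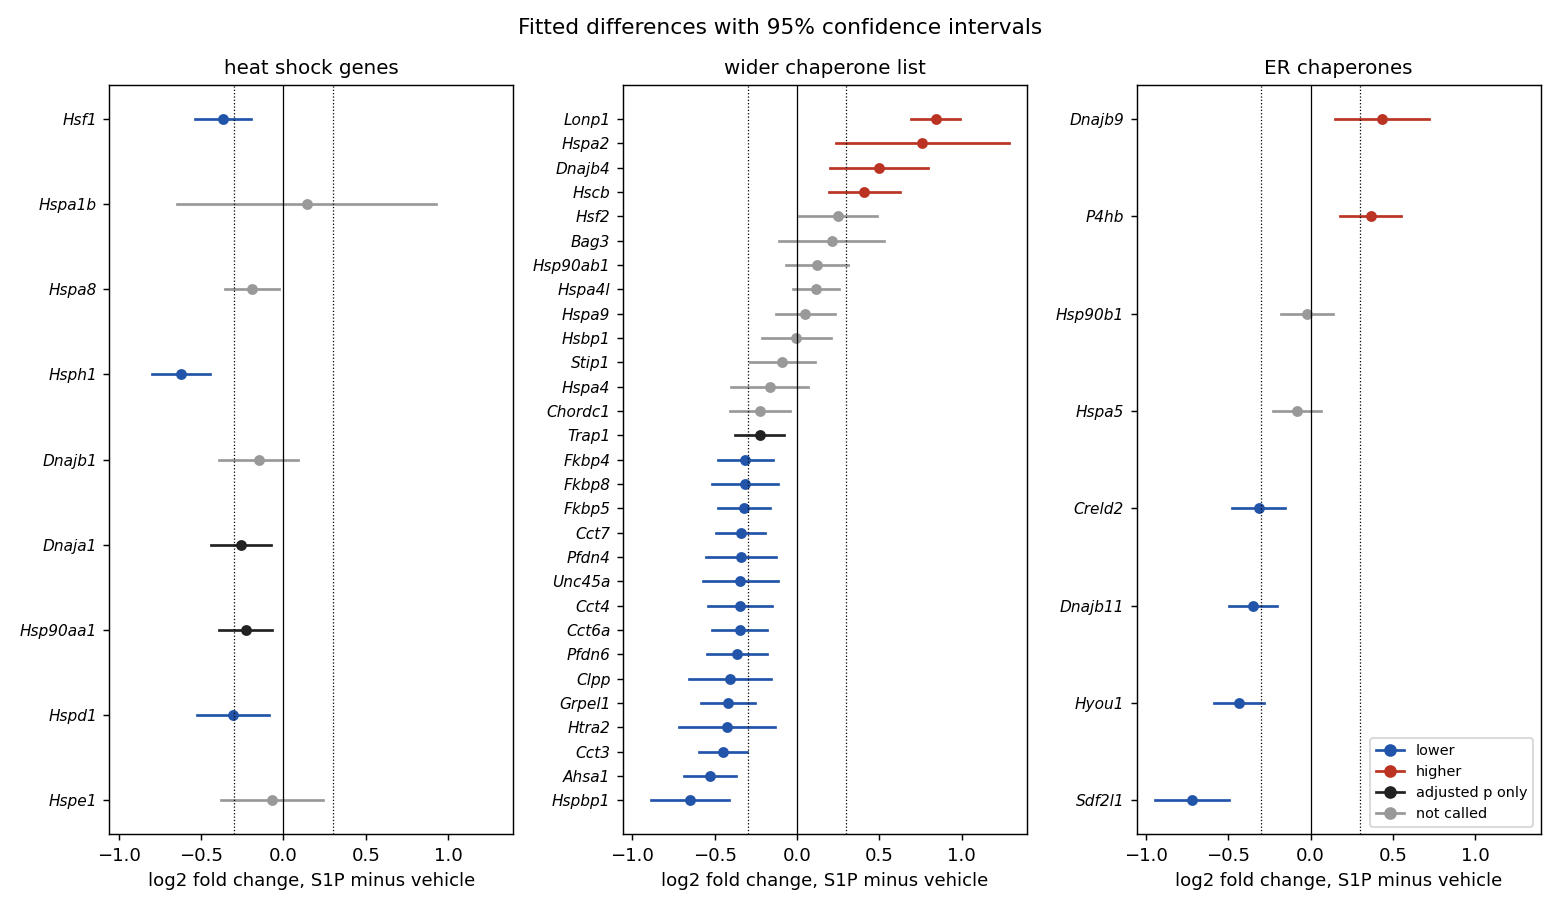
Log2 fold change (S1P minus vehicle, points) with 95% confidence interval (lines) for the 9 tested heat shock genes, for named genes of the wider chaperone list and for named ER chaperones; dotted lines mark the size of change for a call. Hsph1 lies furthest to the left among the heat shock genes, near Hspbp1 and Ahsa1 of the wider list, and Lonp1 furthest to the right.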

How the data were processed

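The deposited table holds whole-number read counts per Ensembl gene, which the authors made with featureCounts after Trim Galore and STAR, on build GRCm39 per the submitters' processing notes. Versions, the annotation and the treatment of multiply mapped reads are not given in the sources used here. All 6 columns were used. Of 56941 identifiers, 56323 matched GENCODE symbols. edgeR 4.0.16 (R 4.3.3, limma 3.58.1) kept 13299 genes with filterByExpr, scaled them by TMM and tested them by glmQLFit and glmQLFTest with treatment alone. Intervals are at 95%. Calls used the cut-offs of the study, 0.05 for the adjusted p and 0.3 for the size of the log2 fold change. The steps were tested on simulated data. CPM and RPKM were computed here from the counts. With 12048880 to 17384084 counts per sample, genes with few counts have wide intervals. Members and lists were chosen with earlier results of these data known. Named genes are the 10 members, 16 listed chaperones, Hspa5, Hsp90b1 and every other called gene of the chaperone lists. Cct2, Cct5, Cct8, Tcp1, Pfdn1, Pfdn2, Pfdn5, Vbp1, Afg3l2, Bop1, Dgat1, Smu1 and the marker and early response genes were named after their values were seen. Alternatives were DESeq2 1.42.0, limma-voom, other scalings and filters, the adjusted p alone, a replicate block, each library left out, Hspa1a and Hspa1b summed, and the longest transcript as length.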

Additional observations from a re-analysis of the deposited data

How the results depend on the processing

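Hsf1 and Hsph1 kept direction and call in all 14 alternatives, and Hspd1 lost its call in 6, among them upper-quartile factors (-0.28, adjusted p = 0.0518 in edgeR's test). Counting by the adjusted p alone gave 5 heat shock genes lower and 7 ER chaperones lower, beside 13.8% of all tested genes. With 1 library left out, 2 to 4 heat shock genes were called lower, the wider list had 1 to 6 genes higher (1 without vehicle replicate 1, 2 without vehicle replicate 3) and 9 to 14 lower (9 without vehicle replicate 2, 10 without S1P replicate 2), and ER chaperones had 0 to 2 higher (0 without vehicle replicate 3, 1 without vehicle replicate 2 or S1P replicate 1) and 4 to 6 lower. The counts over all tested genes moved too, to 1158 to 1736 higher and 961 to 1492 lower. Signs turned for Hspa1b (-0.091 to 0.37 with 1 library left out, -0.10 summed with Hspa1a), Hspe1 (-0.26 to 0.096), Hspa9 (-0.032 to 0.11) and Hsbp1 (-0.077 to 0.073, and 0.019 with upper-quartile factors). None of these passed a test, and the cause was not tested. Same-numbered samples deviated together at correlations of 0.13, -0.0089 and 0.055, so the numbers were not taken to pair the samples. With a replicate block, 1697 genes were called higher and 1423 lower, against 1687 and 1384, and of the heat shock genes 0 and 3, while the adjusted p of Hsp90aa1 was 0.0536. Other scalings moved the median of all tested genes to between -0.014 and 0.036. Depth limits Hspa1a and Hspa1b, and so does the unknown treatment of reads that fit more than 1 gene.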
